A study of Homo sapiens with 9 samples.

Results

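The genes described here are 50 that encode the machinery of DNA replication, from origin recognition to the joining of Okazaki fragments. They were chosen by name and matched by symbol to the Ensembl identifiers of the count files. All 50 were found among the 62703 identifiers listed, and all 50 had enough counts to be tested, with at least 57 counts in every library. The cells were HepG2, a human line derived from a hepatocellular carcinoma. Group 1, the control, was untreated HepG2; group 2 received eliglustat at 20 µM and group 3 received it at 30 µM, in both cases for 72 h, with 3 libraries in each group. No time is given for the controls. Eliglustat inhibits glucosylceramide synthase, the enzyme that makes glucosylceramide from ceramide. HepG2 is an established tumour line, so the values describe a cancer cell line and not liver tissue.

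Replication begins at origins. In G1 the origin recognition complex (ORC1 to ORC6), with CDC6 and CDT1, loads the MCM2-7 helicase onto DNA, a step called licensing, and geminin (GMNN) blocks CDT1 once S phase has begun. At the start of S phase the kinase CDC7 with its activator DBF4, together with firing factors such as TICRR, TOPBP1 and MCM10, joins CDC45 and the GINS complex to MCM2-7 to make the active helicase. Polymerase alpha-primase then lays down primers, the loader RFC places the sliding clamp PCNA, and polymerases delta and epsilon extend the strands, while RPA covers single-stranded DNA. Many of these genes are transcribed in late G1 and S phase under E2F factors, and their messages are low in cells that have left the cycle.

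Each library held 21103757 to 26782810 counts in genes, and 40.6% to 44.0% of records fell in no single gene. Levels are given as CPM, that is counts scaled to each library's total after its adjustment by a TMM factor, and changes as log2 ± SE from edgeR's quasi-likelihood test with all 9 libraries in one fit. P-values were adjusted by Benjamini-Hochberg across 17623 tested genes, and the words fell and rose are kept for adjusted p under 0.05. Nothing in the labels states that replicate libraries derive from separate cultures, and the p-values may then reflect technical spread alone. Control library 1, 20 µM library 3 and 30 µM library 3 deviated together from their groups (correlation of deviations 0.331 to 0.352), and counts without these 3 are given beside the main ones. All 10 hepatocyte markers were detected, with summed levels of 31732 to 32714 CPM in controls, 35216 to 35652 CPM at 20 µM and 39621 to 40002 CPM at 30 µM. APOB was the highest of them (mean 23081 CPM), and the sum does not stand for each marker. Against control, 2 of the 10 were lower and 6 higher at 20 µM, where 16.9% and 17.2% of all genes tested were. At 30 µM 5 were lower and 3 higher, where 31.3% and 29.5% of all genes tested were. Fibroblast markers (5 of 7 detected, COL1A2 and DCN at 0) summed to at most 3.63 CPM, and endothelial markers (6 of 6 detected) to at most 6.42 CPM. Leukocyte markers (5 of 6 detected, PTPRC at 0) summed to 450 to 496 CPM in controls, 438 to 475 CPM at 20 µM and 637 to 667 CPM at 30 µM, nearly all of it LYZ. The part of these marker shifts in the results below was not tested. In GENCODE 29, 18 of the 50 genes share exon bases with a gene on the opposite strand, 4 of them over 10% of their exon bases.

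The messages of nearly all of the 50 listed genes fell at both doses, and more at 30 µM. At 20 µM, 48 of the 50 genes fell and 0 rose, where 16.9% of all genes tested fell and 17.2% rose (34.2% called in either direction). Their median log2 change was -0.47, against 0.01 for all genes tested. At 30 µM, 48 fell, where 31.3% of all genes tested did and 29.5% rose (60.8% called in either direction), and the median was -1.37 against -0.04. A fall of at least 1 log2 unit was seen in 0 of the 50 at 20 µM, where 0.363% of all genes showed it, and in 40 at 30 µM, where 8.18% did. ORC4 was the single gene that rose at 30 µM, a call that ended, with the value at -0.03, when library size alone was used for scaling. CDC7 did not pass the test at 30 µM. All 3 treated libraries were below all 3 controls in 48 genes at 20 µM, where 22.1% of all genes tested showed this, and in 48 at 30 µM, where 33.8% did. Leaving out the 3 libraries that deviate together gave 48 genes called at 20 µM and 49 at 30 µM. Library size alone moved the median of all genes by -0.21 between 30 µM and control and turned 5192 higher and 5515 lower calls into 3530 and 8022. That shift is downward and deepens falls, so its size is no test of them. The least of the 48 falls at 30 µM was -0.46 (POLD2). In bulk libraries such as these, fewer cells in S phase and less RNA per cell cannot be told apart.

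Summed over the 50 genes, replication took 0.408 ± 0.00640% of the control counts, 0.295 ± 0.000438% of those at 20 µM and 0.149 ± 0.00161% of those at 30 µM (SD, n = 3). Controls lay between 0.402% and 0.415%, the 20 µM libraries between 0.2946% and 0.2954%, and the 30 µM libraries between 0.148% and 0.151%, so the groups did not overlap. The mean at 30 µM was 0.365 times the control mean. Taken gene by gene, 47 of 50 had every 30 µM library below every 20 µM library and those below every control, a pattern held by 9.01% of all genes tested. The 3 exceptions were ORC4, RFC1 and CDC7.

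**Figure D1:**
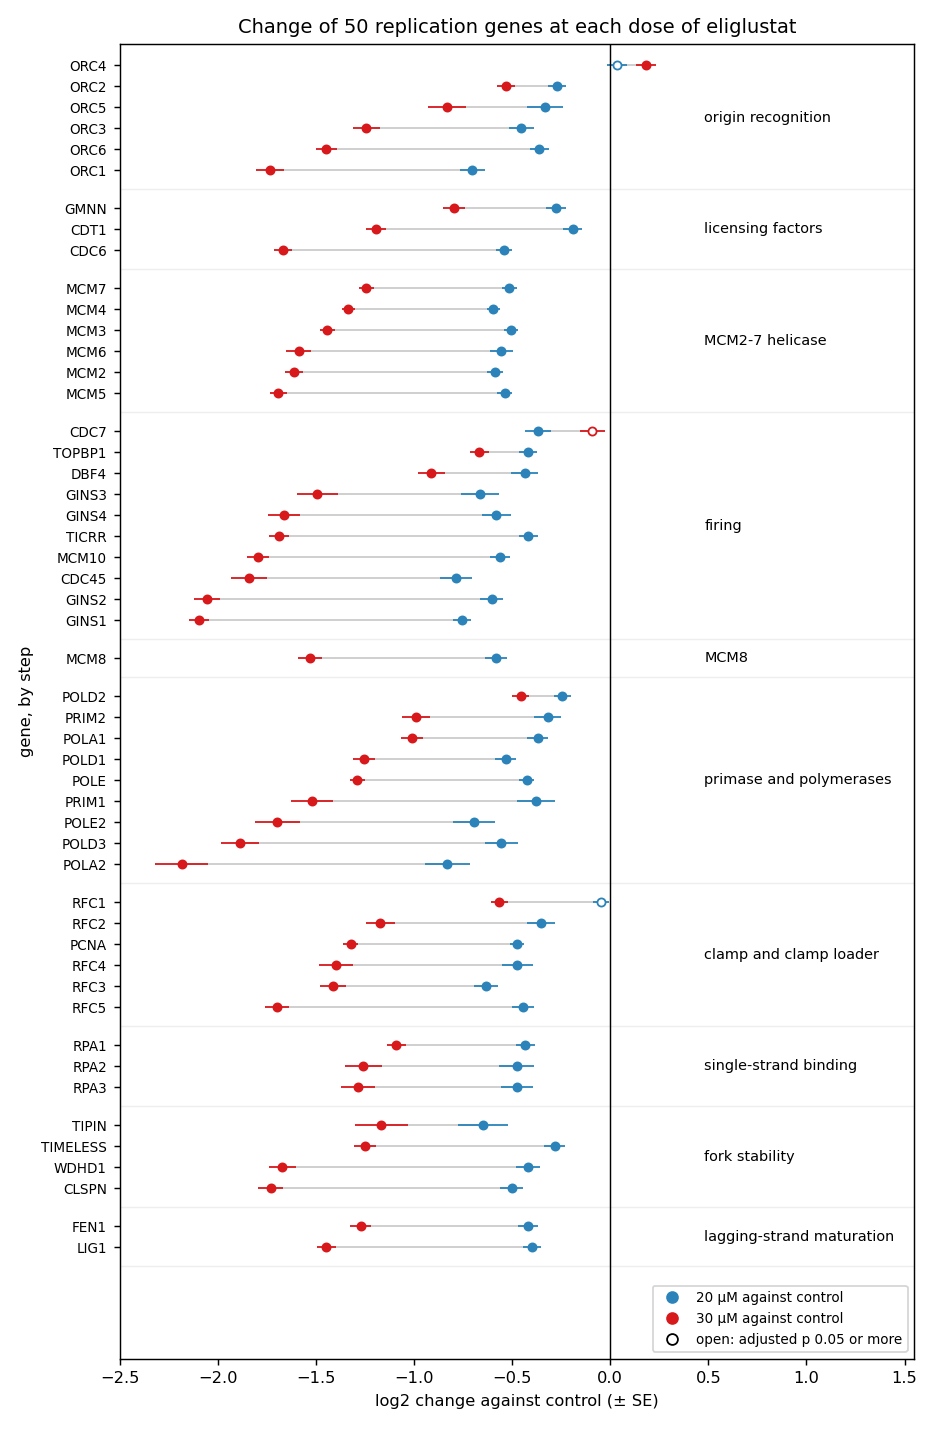
Log2 change against control (x axis, ± SE from edgeR) of each of the 50 genes (y axis, grouped by step), at 20 µM in blue and 30 µM in red; open circles are changes with an adjusted p of 0.05 or more. The red points lie left of the blue ones in all genes but ORC4 and CDC7, from 0.18 for ORC4 to -2.18 for POLA2.

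The promoters of the genes that fell most and least were read from RefSeq windows (GRCh38.p14, 250 bases before to 50 after each transcription start), which matched 44 of the 50 genes in 56 windows. GINS4, MCM4, MCM5, POLD3, RPA2 and RPA3 were not matched, so MCM5, the largest fall of the helicase, is named only. The 4 spellings of E2F-type letters searched (TTTCCCGC, TTTGGCGC, TTTCGCGC and TTTGCCGC) were read on both strands, and matches on opposite strands can overlap. They stood in 23 of the 44 genes (52.3%), against 6.51% of the 11049 tested genes with a window; in the first 250 bases alone the shares were 34.1% and 5.49%. By window, 41.1% of the 56 held them, against 3.32% of all 35116 windows in the table. CCAAT, the letters of NF-Y-type sites, stood in 59.1% of the 44 genes and 43.0% of tested genes. TTTGAA, the cell cycle homology region of many mitotic genes, stood in 1 of the 44, DBF4 (2.27% against 13.8%). Below are POLA2 and GINS2, which fell steeply, and PCNA, whose fall was near the middle of the 50, then MCM6 as the helicase gene with paired matches, then CDC7 and ORC4, which did not fall at 30 µM; MCM6, GINS2, PCNA and CDC7 were chosen after their values were seen. Capitals mark E2F-type letters, and each line reads 5′ to 3′ on the strand of the gene.
POLA2, chr11:65261898-65261927, plus strand, largest fall: ttggctcccggTTTCGCGCatgcgtgcact
GINS2, chr16:85688967-85688996, minus strand: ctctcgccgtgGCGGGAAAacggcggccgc
PCNA, chr20:5126663-5126692, minus strand: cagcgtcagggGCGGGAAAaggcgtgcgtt
MCM6, chr2:135876511-135876606, minus strand: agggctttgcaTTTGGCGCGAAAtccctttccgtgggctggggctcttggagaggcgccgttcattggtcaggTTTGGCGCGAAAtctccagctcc
CDC7, chr1:91501033-91501062, plus strand, upstream match: gtgcagttcctTTTCCCGCcccccttcgga
CDC7, chr1:91501067-91501096, plus strand, downstream match: tccgacctgcgGCGGGAAAgtcgcgcgcct
ORC4, chr2:148021605-148021801, minus strand, outside its exons, no match: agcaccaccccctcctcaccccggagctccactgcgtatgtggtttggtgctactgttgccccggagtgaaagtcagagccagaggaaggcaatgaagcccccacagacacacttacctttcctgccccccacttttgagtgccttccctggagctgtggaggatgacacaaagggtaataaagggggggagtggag
In MCM6 the same 12 letters, TTTGGCGCGAAA, occurred at both places, each read as a match on either strand. CDC7 held 2 matches although its level at 30 µM was close to control, and ORC4, ORC2, RFC1 and POLD2, the others of the 5 smallest changes, held none. TOPBP1 (-0.67) and GMNN (-0.80), the next smallest, held 1 each. A match in these windows is a description of letters and not of binding, and TICRR, CDC45, MCM10, ORC1, RFC5 and WDHD1 fell steeply with none in theirs.

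Among the 6 subunits of the origin recognition complex, 5 fell at both doses, with medians of -0.35 at 20 µM and -1.04 at 30 µM. ORC1, the ATPase subunit that in human cells is itself regulated through the cycle (chr1:52372829-52404459, minus strand, GRCh38), fell most. Its levels were 37.2, 35.9 and 38.2 CPM in controls, 22.6, 22.6 and 23.1 CPM at 20 µM and 11.8, 10.3 and 11.4 CPM at 30 µM. The 3 groups were fully apart and the libraries within a group were close. This was a log2 change of -0.70 ± 0.0644 at 20 µM (adjusted p = 1.21e-10) and -1.73 ± 0.0704 at 30 µM (adjusted p = 1.09e-20), 3.33-fold lower. ORC2, ORC3, ORC5 and ORC6 changed by -0.53 to -1.45 at 30 µM, ORC2 least and ORC6 most.

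ORC4, another ATPase subunit of the same complex (chr2:147930397-148021604, minus strand), went the other way. It stood at 45.6, 47.4 and 44.6 CPM in controls, 48.0, 46.5 and 46.0 CPM at 20 µM and 54.2, 52.3 and 49.5 CPM at 30 µM. The 30 µM libraries were above all others, by a small margin, while controls and 20 µM overlapped. The log2 change was 0.03 ± 0.0511 at 20 µM (adjusted p = 0.685) and 0.18 ± 0.0510 at 30 µM (adjusted p = 0.00249), and the latter became -0.03 (adjusted p = 0.662) with library size alone. Exons of ACVR2A and MBD5 on the opposite strand cover 6.58% of its exon bases, and the counting strand setting is not given in the sources used here. The log2 ratio of ORC1 to ORC4, which does not depend on the scaling, was -0.31 in controls, -1.04 at 20 µM and -2.22 at 30 µM. This pair and those below were chosen after the values were seen. An exact permutation of 3 against 3 libraries cannot give p under 0.1, so no ratio could pass, and none is called.

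All 3 licensing factors fell at both doses, by different amounts. CDC6, which joins ORC to load the helicase, fell most: 125, 128 and 124 CPM in controls, 89.1, 85.4 and 84.6 CPM at 20 µM and 39.1, 37.8 and 41.7 CPM at 30 µM. Its log2 change was -0.54 ± 0.0424 at 20 µM (adjusted p = 3.74e-12) and -1.67 ± 0.0455 at 30 µM (adjusted p = 1.74e-25). CDT1, the partner that brings MCM2-7 to ORC, was at 108, 120 and 112 CPM in controls, 94.8, 104 and 98.5 CPM at 20 µM and 47.4, 47.5 and 53.6 CPM at 30 µM. Its first change was small, -0.19 ± 0.0492 (adjusted p = 0.00265), and its change at 30 µM was -1.19 ± 0.0520 (adjusted p = 3.07e-18). GMNN, the inhibitor of CDT1, fell least, from 67.8, 64.6 and 69.9 CPM in controls to 60.0, 51.5 and 55.4 CPM at 20 µM and 40.1, 37.1 and 39.5 CPM at 30 µM. Its changes were -0.28 ± 0.0529 (adjusted p = 7.77e-05) and -0.80 ± 0.0547 (adjusted p = 1.55e-14). The log2 ratio of CDT1 to its inhibitor was 0.75 ± 0.131 in controls, 0.84 ± 0.179 at 20 µM and 0.35 ± 0.0994 at 30 µM, with SD over 3 libraries.

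The 6 subunits of the MCM2-7 helicase fell together and within a narrow band, from -0.50 to -0.60 at 20 µM and from -1.24 to -1.69 at 30 µM. The helicase is a ring with each subunit present once. MCM5 fell most (chr22:35400063-35425430, plus strand), from 171, 170 and 163 CPM in controls to 111, 119 and 118 CPM at 20 µM and 52.3, 51.4 and 52.3 CPM at 30 µM, a log2 change of -0.54 ± 0.0392 and then -1.69 ± 0.0417 (adjusted p = 6.89e-13 and 1.19e-26). MCM7 fell least, from 243, 236 and 242 CPM to 161, 175 and 170 CPM and then 102, 99.6 and 103 CPM, a change of -0.51 ± 0.0364 and then -1.24 ± 0.0376 (adjusted p = 3.76e-13 and 3.59e-24). In both genes the 3 groups lay far apart. MCM2 shares 23.6% of its exon bases with genes on the opposite strand, so its counts are uncertain. MCM8, a relative of these subunits that acts in homologous recombination, fell with them: 50.1, 48.1 and 49.5 CPM in controls, 34.3, 32.7 and 31.8 CPM at 20 µM and 16.6, 17.8 and 16.8 CPM at 30 µM (log2 -0.58 ± 0.0559 and -1.53 ± 0.0603, adjusted p = 3.49e-10 and 4.71e-21).

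The firing factors held 2 of the 3 largest falls among the 50 genes, and also CDC7, which like ORC4 did not fall at 30 µM. All 10 fell at 20 µM and 9 fell at 30 µM, with medians of -0.57 and -1.68. GINS1, a subunit of the 4-part GINS complex of the active helicase (chr20:25407727-25452628, plus strand), fell most in this step. It was at 90.5, 93.6 and 98.0 CPM in controls, 56.8, 54.5 and 55.9 CPM at 20 µM and 22.1, 22.7 and 21.1 CPM at 30 µM, with wide gaps between the groups. The log2 change was -0.76 ± 0.0469 (adjusted p = 1.66e-14) and -2.10 ± 0.0518 (adjusted p = 1.23e-26), 4.28-fold lower at 30 µM. The other GINS subunits, GINS2, GINS3 and GINS4, changed by -1.49 to -2.05 at 30 µM, CDC45 by -1.84, MCM10 by -1.79 and TICRR by -1.69. TOPBP1, which also serves the checkpoint kinase ATR, changed by -0.67. GINS4 and GINS3 share 23.6% and 10.9% of exon bases with genes on the opposite strand.

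CDC7, the kinase that fires licensed origins by phosphorylating MCM2-7 (chr1:91500893-91525764, plus strand), fell at 20 µM and not at 30 µM. Its levels were 44.3, 44.2 and 43.8 CPM in controls, 36.6, 33.5 and 32.4 CPM at 20 µM and 43.5, 44.5 and 36.3 CPM at 30 µM. Controls were almost equal, all 20 µM libraries were lower, and at 30 µM 2 libraries stood at the control level while library 3 overlapped with 20 µM. The log2 change was -0.37 ± 0.0646 at 20 µM (adjusted p = 3.29e-05) and -0.09 ± 0.0639 at 30 µM (adjusted p = 0.225), and between the doses it was 0.28 ± 0.0653 (adjusted p = 0.000584). With library size alone the rise between the doses was not called (adjusted p = 0.303) and the change at 30 µM against control was (-0.30, adjusted p = 0.000244). Without 30 µM library 3 the change against control was 0.00016. DBF4, an activating subunit of CDC7, fell at each dose: 32.2, 37.0 and 37.4 CPM, then 27.0, 25.6 and 26.0 CPM, then 18.7, 20.4 and 17.5 CPM (log2 -0.44 ± 0.0674 and -0.91 ± 0.0701, adjusted p = 3.30e-06 and 2.62e-13). The log2 ratio of CDC7 to DBF4 was 0.31 ± 0.126 in controls, 0.38 ± 0.0624 at 20 µM and 1.13 ± 0.0824 at 30 µM, and all 3 libraries at 30 µM were above the other 6.

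**Figure D2:**
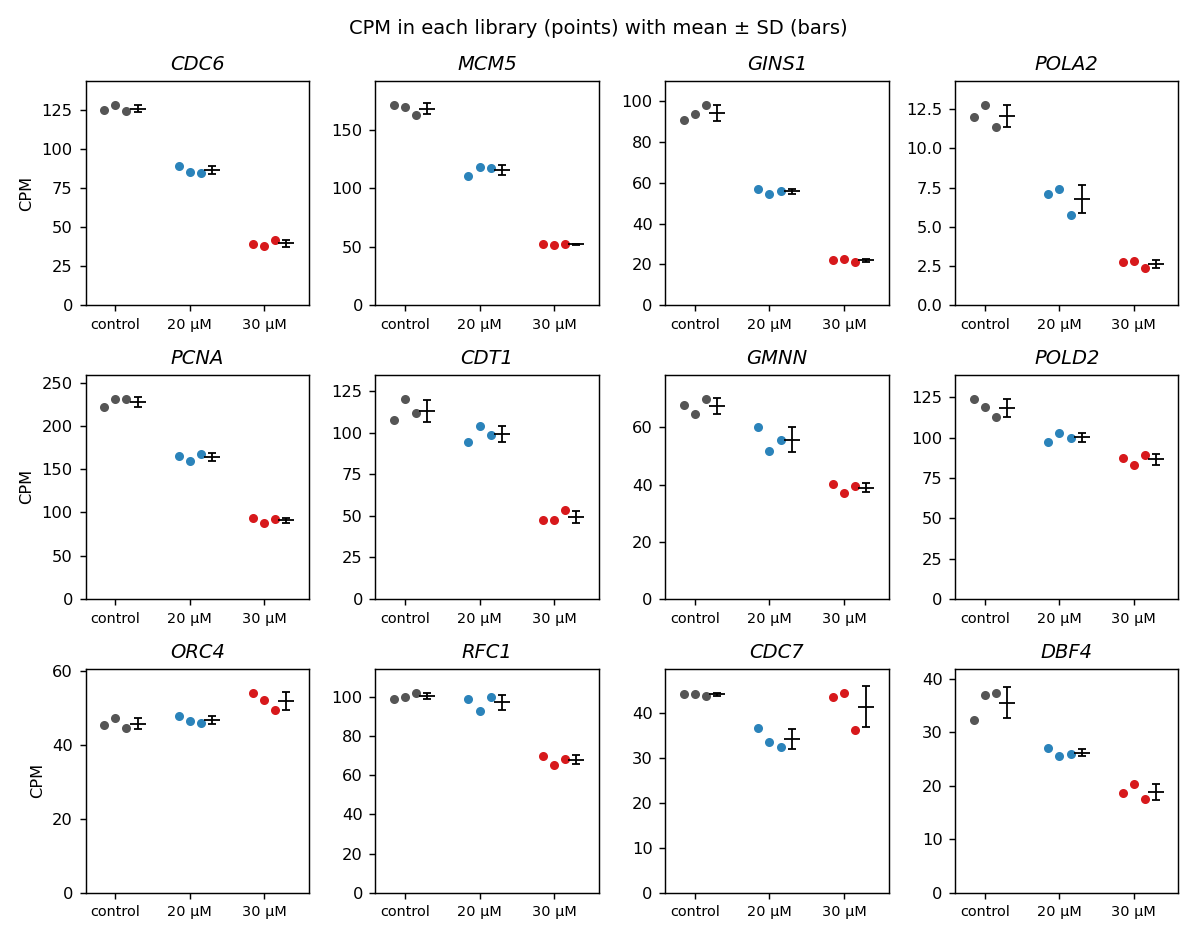
CPM (y axis, from 0) of 12 of the genes in each library (points; control grey, 20 µM blue, 30 µM red), with the mean and SD of each group beside them. In CDC6, MCM5, GINS1, POLA2 and PCNA the groups form 3 separate levels, while RFC1 is level up to 20 µM, ORC4 stays between 44.6 and 54.2 CPM, and CDC7 is lowest at 20 µM.

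All 9 primase and polymerase genes fell at both doses, with medians of -0.43 and -1.29, and this step held the widest range. POLA2, the regulatory B subunit of polymerase alpha-primase (chr11:65261762-65305589, plus strand), fell most of all 50 genes. It was at 12.0, 12.8 and 11.4 CPM in controls, 7.10, 7.43 and 5.75 CPM at 20 µM and 2.73, 2.85 and 2.35 CPM at 30 µM, and the groups were apart at each dose. The log2 change was -0.83 ± 0.116 (adjusted p = 6.30e-07) and -2.18 ± 0.133 (adjusted p = 5.69e-16), 4.55-fold lower at 30 µM. POLA2 is also among the least abundant of the 50, and 35.1% of its exon bases lie in a transcript on the same strand, AP000944.2, where reads may be counted for neither gene. POLA1, the catalytic subunit of the same polymerase, fell less (-1.01 at 30 µM), as did the primase subunits PRIM1 (-1.52) and PRIM2 (-0.99). PRIM1 shares 16.2% of its exon bases with NACA and AC117378.1 on the same strand, and POLD1 shares 8.64% with AC020909.1.

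POLD2, the accessory subunit that holds polymerase delta together (chr7:44114681-44124358, minus strand), fell least in this step. It was at 124, 119 and 113 CPM in controls, 97.5, 103 and 99.9 CPM at 20 µM and 87.5, 82.8 and 88.9 CPM at 30 µM. The groups did not overlap, yet the log2 changes were small, -0.24 ± 0.0424 (adjusted p = 1.97e-05) and -0.46 ± 0.0429 (adjusted p = 3.58e-11). Other subunits of polymerase delta changed more: POLD1, the catalytic subunit, by -1.25 and POLD3, which binds PCNA, by -1.88 at 30 µM. The log2 ratio of POLD3 to POLD2 was -2.39 ± 0.0174 in controls, -2.70 ± 0.0788 at 20 µM and -3.82 ± 0.200 at 30 µM. POLE and POLE2, the catalytic and second subunits of polymerase epsilon, changed by -1.29 and -1.70.

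The sliding clamp and 4 of its 5 loader subunits fell at both doses, and the large loader subunit fell at 30 µM. PCNA, the ring that tethers polymerases to DNA (chr20:5114953-5126626, minus strand), was at 222, 231 and 231 CPM in controls, 165, 159 and 167 CPM at 20 µM and 93.3, 87.7 and 92.2 CPM at 30 µM. These were 3 separate levels, a log2 change of -0.48 ± 0.0366 (adjusted p = 2.43e-12) and then -1.32 ± 0.0380 (adjusted p = 8.23e-25). RFC5, a small subunit of the loader, fell most: 51.5, 52.2 and 52.1 CPM, then 38.3, 37.8 and 38.4 CPM, then 14.8, 16.3 and 16.8 CPM (log2 -0.44 ± 0.0544 and -1.70 ± 0.0600, adjusted p = 4.95e-08 and 2.43e-22). RFC5 shares 10.65% of its exon bases with genes on the opposite strand. RFC5, RFC3 and PCNA have pseudogenes named after them, as do DBF4, POLD2, RPA2 and FEN1 in the other steps. RFC2, RFC3 and RFC4 changed by -1.17 to -1.41 at 30 µM.

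RFC1, the large subunit of the loader (chr4:39287456-39366375, minus strand), was the other gene with no change at 20 µM past the test. Controls stood at 98.9, 99.9 and 102 CPM and the 20 µM libraries at 98.9, 92.7 and 99.8 CPM, so these groups overlapped. All 30 µM libraries were lower, at 69.7, 65.4 and 68.4 CPM. The log2 change was -0.05 ± 0.0420 at 20 µM (adjusted p = 0.440) and -0.56 ± 0.0431 at 30 µM (adjusted p = 2.15e-13). The log2 ratio of RFC1 to RFC5 was 0.95 in controls, 1.35 at 20 µM and 2.09 at 30 µM.

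The 3 subunits of RPA, which coats single-stranded DNA at the fork, fell alike, by -0.43 to -0.48 at 20 µM and by -1.09 to -1.29 at 30 µM. RPA1, the large subunit, was at 90.3, 95.7 and 87.8 CPM in controls, 66.8, 65.9 and 70.0 CPM at 20 µM and 43.6, 44.96 and 40.1 CPM at 30 µM (log2 at 30 µM -1.09 ± 0.0498, adjusted p = 2.80e-19). RPA3, the smallest, was at 21.1, 21.5 and 24.5 CPM, then 17.0, 15.1 and 16.2 CPM, then 8.43, 9.16 and 9.91 CPM (-1.29 ± 0.0884, adjusted p = 1.51e-14). In both subunits no library of one dose reached the next. The 4 genes that steady the fork also fell at both doses. CLSPN, which carries the checkpoint signal to CHK1, fell most, from 52.2, 49.2 and 52.1 CPM to 34.4, 36.8 and 37.3 CPM and then 17.0, 14.6 and 14.8 CPM (-1.73 ± 0.0645 at 30 µM, adjusted p = 1.07e-21). TIPIN, the partner of TIMELESS, fell least and is the least abundant of the 4 in CPM: 8.82, 9.11 and 7.62 CPM, then 5.21, 5.55 and 5.51 CPM, then 3.10, 4.17 and 4.05 CPM (-1.17 ± 0.136, adjusted p = 4.04e-09). The pseudogene RPL9P25 on the same strand covers 21.0% of its exon bases, so its counts are uncertain. WDHD1, which links the helicase to polymerase alpha, changed by -1.67 and TIMELESS by -1.25.

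On the lagging strand, FEN1 cuts the flap of each Okazaki fragment and LIG1 seals the nick, and both fell at each dose. LIG1 went from 85.04, 83.2 and 82.6 CPM to 61.1, 65.0 and 64.5 CPM and then 30.8, 30.6 and 30.6 CPM (log2 -1.45 ± 0.0480 at 30 µM, adjusted p = 4.44e-23). FEN1 went from 63.1, 61.7 and 60.3 CPM to 46.4, 45.5 and 46.6 CPM and then 24.7, 25.04 and 26.9 CPM (-1.27 ± 0.0532, adjusted p = 2.53e-20). The spread within each group was a few CPM at most.

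Between the doses, 48 of the 50 genes were lower at 30 µM than at 20 µM, where 28.9% of all genes tested were and 28.0% were higher (57.0% called in either direction; 4942 higher and 5099 lower, or 3029 and 7690 with library size alone). The median of the 50 was -0.89. In 48 genes every 30 µM library was below every 20 µM library, against 31.4% of all genes tested, and 21 fell by at least 1 log2 unit, against 6.43%. ORC4 and CDC7 were higher, and the scaling decided both calls. ORC4 was at 0.15 ± 0.0510 (adjusted p = 0.0127) and at -0.04 with library size alone. This comparison shares the 20 µM libraries with that of 20 µM against control. Whether the second step of dose changed a gene by more than the first was tested in the same fit as the difference of both changes. The step from 20 to 30 µM was the larger fall in 33 of the 50 genes and the more positive change in 1, CDC7, and in 16 the difference did not pass the test. Of all genes tested, 19.9% were called lower, 21.0% higher and 40.9% in either direction (3696 higher and 3503 lower, or 2240 and 5216 with library size alone). The second step covers a narrower range of dose than the first. Without the 3 libraries that deviate together 25 were lower and 2 higher.

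By step, a larger second fall was called in all 3 licensing factors, 5 of 6 MCM2-7 subunits, 5 of 6 clamp and loader genes, 3 of 4 fork stability genes and both lagging-strand genes. It was called in 3 of 6 ORC subunits, 5 of 10 firing factors, 5 of 9 primase and polymerase genes and 1 of 3 RPA subunits. Some of these calls were borderline. With DESeq2 in place of edgeR 6 were lost: GMNN, ORC1, ORC3, POLA1, PRIM2 and RPA1 (adjusted p 0.067 to 0.110). The same 6 were among the 9 lost without the 3 libraries that deviate together. A call depends on the SE as well as on the size: POLA2 (-0.52 ± 0.219) was not called and MCM7 (-0.21 ± 0.0638) was. Median differences were -0.43 for MCM2-7, -0.46 for clamp and loader, -0.39 for firing, -0.35 for primase and polymerases and -0.30 for RPA. They ran from -0.25 (ORC) to -0.70 (fork stability), and no test compared the steps. TICRR had the most negative difference, -0.85 ± 0.0864 (adjusted p = 8.58e-10), from -0.42 in the first step and -1.27 in the second. GINS2 and WDHD1 came next, at -0.85 and -0.83 (adjusted p = 7.51e-08 and 2.92e-07). CDT1 had a small first change of -0.19 and a second of -1.002, a difference of -0.81 ± 0.0865 (adjusted p = 7.92e-09). RFC1 had nearly all of its fall in the second step, with a difference of -0.47 ± 0.0731 (adjusted p = 2.69e-06). CDC7 was at the other end, at 0.64 ± 0.114 (adjusted p = 2.79e-05). POLD2, ORC2 and DBF4 had differences of 0.03, 0.01 and -0.04, with adjusted p of 0.765, 0.9495 and 0.836, and these signs turned under other scalings or with 1 library left out.

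**Figure D3:**
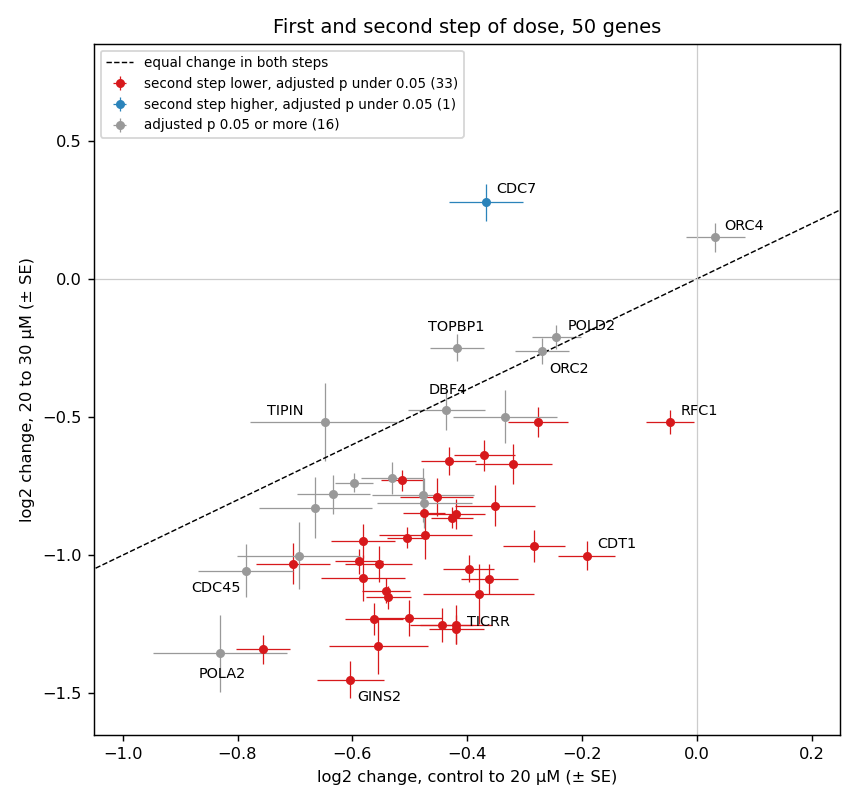
Log2 change from control to 20 µM (x axis) against that from 20 to 30 µM (y axis), each ± SE, for the 50 genes; the dashed line marks equal changes, and colours give the test of the difference. Most genes lie below the line (33 called), CDC7 lies above it, and POLD2, ORC2 and DBF4 lie on it; the axes share the 20 µM libraries, so no relation between them is read.

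Subunits of one complex stood at different message levels when set per length. Levels per length are CPM per kilobase of all exon bases of the gene in GENCODE 29, as mean ± SD (n = 3). PCNA was the highest of the 50 in controls at 155 ± 3.67, and it was still highest at 30 µM at 61.9 ± 2.02. In the helicase ring the order in controls was MCM3 (72.4 ± 2.34), MCM7 (54.8 ± 0.921), MCM2 (42.5 ± 1.92), MCM4 (41.8 ± 0.486), MCM5 (22.9 ± 0.634) and MCM6 (12.6 ± 0.771). MCM2 and MCM4 did not differ beyond their spread, and the others did. At 30 µM MCM3 and MCM6 were still the ends of the order, at 26.7 ± 0.472 and 4.21 ± 0.292, a ratio of 6.34 against 5.75 in controls. The order depends on the length used. With the longest transcript as length, MCM4 (69.7 ± 0.810) stood above MCM2 (57.6 ± 2.596) in controls, and MCM7 (32.9 ± 0.573) above MCM3 (30.3 ± 0.537) at 30 µM, while MCM6 was lowest with either length.

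In the origin recognition complex the order itself changed with dose. In controls ORC6 (15.3 ± 0.448) and ORC2 (14.9 ± 0.591) were highest and did not differ beyond their spread, followed by ORC1 and ORC3, with ORC4 (5.14 ± 0.161) and ORC5 (4.73 ± 0.333) lowest. At 30 µM ORC2 was highest at 10.3 ± 0.0758, ORC4 (5.83 ± 0.268) was level with ORC6 (5.59 ± 0.217), and ORC1 had fallen to 3.54 ± 0.254. These near-equal levels were not seen with the longest transcript as length, where ORC6 (35.9 ± 1.05) was above ORC2 (20.2 ± 0.8003) in controls and ORC4 (7.75 ± 0.356) was below ORC6 (13.1 ± 0.509) at 30 µM. Among the primase and polymerase genes POLD2 was highest and POLA2 lowest in each group, with a ratio of 15.3 in controls, 22.9 at 20 µM and 50.7 at 30 µM. Among firing factors GINS1 was highest in controls (23.1 ± 0.931), and at 30 µM CDC7 was (11.6 ± 1.27). Lengths were not corrected for exon bases shared with other genes, and the ratio of the highest to the lowest subunit also moved with the length used.

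**Figure D4:**
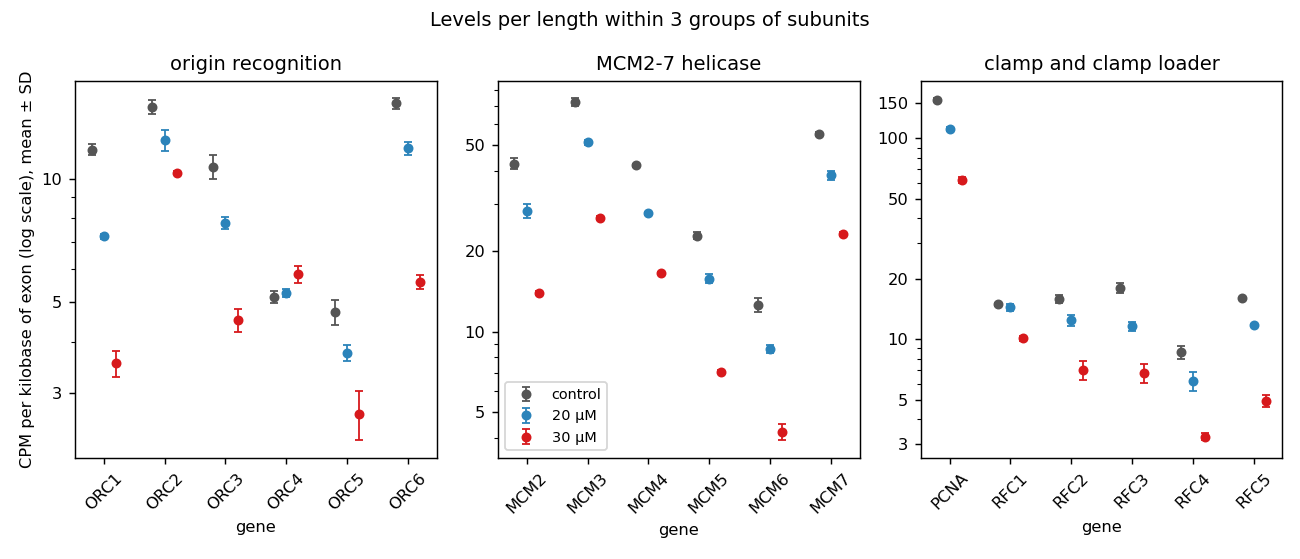
CPM per kilobase of exon (y axis, log scale; mean ± SD of 3 libraries) of the ORC, MCM2-7 and clamp and loader genes in controls (grey), at 20 µM (blue) and at 30 µM (red). The MCM2-7 genes drop at each dose, ORC4 goes from 5.14 to 5.83 at 30 µM while ORC1 falls from 11.8 to 3.54, and PCNA stays far above the RFC genes.

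Other genes of replication, listed apart from the 50 and chosen with earlier results of these data known, held genes that fell and genes that rose. Of 29 listed, 28 could be tested, and RNASEH2A had too few counts (at most 12 in a library). At 20 µM 23 fell and 2 rose (median -0.44), where 16.9% of all genes tested fell and 17.2% rose. At 30 µM 19 fell and 3 rose (median -0.92), where 31.3% fell and 29.5% rose. UHRF1, which recruits the maintenance DNA methyltransferase DNMT1 behind the fork, fell most, from 160, 170 and 184 CPM in controls to 107, 113 and 114 CPM at 20 µM and 45.9, 51.1 and 46.6 CPM at 30 µM (log2 -1.84 ± 0.0503, adjusted p = 9.96e-23). PCLAF, a PCNA-binding protein, followed with -1.68 ± 0.119 (adjusted p = 4.80e-13). POLD4, the smallest subunit of polymerase delta, rose from 0.617 ± 0.318 to 1.90 ± 0.294 CPM (1.58 ± 0.309, adjusted p = 4.09e-05) at very low counts, 6 to 52 per library. TOP1, which relaxes supercoils ahead of the fork and also acts in transcription, first fell and then rose: 227, 221 and 228 CPM in controls, 190, 176 and 191 CPM at 20 µM and 333, 331 and 329 CPM at 30 µM. Its changes against control were -0.28 ± 0.0349 (adjusted p = 7.72e-08) and 0.56 ± 0.0346 (adjusted p = 1.13e-15), and the rise was 0.35 with library size alone.

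Genes of the cell cycle stages next to replication fell as well. All 20 mitosis genes listed (among them PLK1, AURKB, CDK1 and CCNB1) fell at 20 µM, with a median of -0.65, and at 30 µM, with a median of -1.25, where 16.9% and 31.3% of all genes tested fell. The test of the second step against the first called 3 of the 20 lower and 4 higher (7 and 1 with library size alone), shares near those of all genes tested (19.9% lower and 21.0% higher), with a median difference of 0.05. Of 20 homologous recombination and Fanconi genes, 19 fell at 20 µM (median -0.48) and 20 at 30 µM (median -1.38), and the second step was called lower in 14 and higher in 0, with a median difference of -0.47. For the 50 replication genes the median difference was -0.40, and for the 28 other replication genes -0.06, with 8 lower and 6 higher (12 and 4 with library size alone). Over all genes tested the median difference was -0.03. No test compared these lists with one another, and all of them were measured in the same 9 libraries.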

How the data were processed

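The labels describe RNA sequencing of HepG2. The authors deposited raw read counts for every gene, with a separate file for each library. STAR 2.7.10a, HTSeq and FastQC were used on build hg38, per the submitters' processing notes. How HTSeq treated strand, and which annotation release it used, is not given in the sources used here. Labels conflict on the library (polyA RNA, or total RNA depleted of ribosomal RNA). The series text also names a smaller eliglustat dose, not used here, and an additional incubation that the labels do not tie to these libraries.

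The 5 closing HTSeq totals were kept out of the gene counts. Of 62703 identifiers, 62639 matched a symbol and 58264 a GENCODE 29 position. After filterByExpr (17623 genes, 99.9% of counts) and TMM scaling, edgeR 4.0.16 in R 4.3.3 fitted robust quasi-likelihood models with 1 mean for each group, called at a Benjamini-Hochberg adjusted p of 0.05. The biological coefficient of variation was 0.0529. The SE was taken as the log2 change over the root of F. Every pair of replicate libraries differed beyond sampling noise (chi-square per gene at least 2.10). The test was checked on simulated data in which few genes changed, as many up as down, so that check does not bear on the scaling.

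The members, lists and tests were chosen with earlier results of these data known. Named by rule were the largest and smallest change at 30 µM in each step of 3 or more genes, members called against their step, and the 2 largest changes each way among other replication genes; CDT1, PCNA, DBF4 and the genes named for the second step were added after their values were seen. Alternatives were median-ratio, upper-quartile and library-size scaling, DESeq2 1.42.0, limma 3.58.1 voom, other count filters, a fit of nuclear protein-coding genes, a fit of just the groups compared, a replicate block, a 0.5 log2 rule, each library left out, and 3 libraries left out together.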

Additional observations from a re-analysis of the deposited data

How the results depend on the processing

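The falls of the replication genes changed little with the processing. Leaving out each library in turn gave 48 to 48 genes called at 20 µM, 49 to 49 at 30 µM, 49 to 50 between the doses and 28 to 35 for the second step against the first. Over the other alternatives these counts were 22 to 48, 47 to 50, 43 to 50 and 17 to 42. The low ends of 22 and 17 came from requiring a change of at least 0.5 log2 units. Between controls and a dose, deviations of same-numbered libraries correlated at -0.202 to 0.143, and those of different numbers at -0.210 to 0.343. Between the doses the same numbers gave 0.077 to 0.352 and different numbers -0.256 to 0.137. The labels' replicate numbers thus do not pair the libraries across all groups. With the replicate block 48, 49, 50 and 35 were called. With nuclear protein-coding counts as denominator the summed shares were 0.443%, 0.322% and 0.166%. In the first 250 promoter bases E2F-type letters stood in 34.1% of genes and TTTGAA in 0.0%. With the longest transcript as length, the highest-to-lowest ratio in controls was 5.25 for ORC and 9.40 for clamp and loader genes.

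Signs that turned were those of small changes, and the cause was not tested. With library size alone ORC4 was at -0.028 at 30 µM and -0.044 between the doses, and its second-step difference was -0.060, with TIPIN at -0.047, POLD2 at -0.14, ORC2 at -0.17 and TOPBP1 at -0.0073. With upper-quartile factors POLD2 was at -0.058 and ORC2 at -0.083, and ORC4 lost its call between the doses (adjusted p = 0.228), as it did without 30 µM library 1 (adjusted p = 0.0751). The ORC2 difference was -0.016 at 50 counts or more and -0.0145 in nuclear protein-coding genes. Over the fits that leave out 1 library, the second-step difference ran from -0.088 to 0.065 in ORC2, -0.095 to 0.027 in DBF4 and -0.0081 to 0.072 in POLD2, and CDC7 at 30 µM ran from -0.149 to 0.00016. Without all 3 deviating libraries DBF4 was at 0.073 and POLD2 at -0.022. POLA2 had the lowest count in any library, 57, and TIPIN had the largest SE against control at both doses (0.129 at 20 µM and 0.136 at 30 µM).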
